A study of Arabidopsis halleri with 12 samples.

Results

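Roots of Arabidopsis halleri in which the nicotianamine synthase gene AhNAS2 was suppressed by RNA interference (RNAi) were compared with wild-type (WT) roots in control medium. The comparison holds 6 of the 12 arrays of the series, 3 labelled RNAi-Root-Control and 3 labelled WT-Root-Control, and was read on all 22746 probe sets of the array other than its 64 control probe sets. A probe set is a group of short probes that together give 1 signal, and its values are given here as deposited, on the log2 scale, so that a difference of 1 is a 2-fold change. Differences are RNAi minus WT throughout. The WT plants were of the Langelsheim wild-type and the RNAi plants of the line AhNAS2-RNAi-1-2. All were propagated as clones, were 5 weeks old and grew hydroponically in Hoagland solution, here without the 10 µM Zn2+ that the remaining arrays received. Each sample pooled the roots of 3 plants, and 3 independent experiments were done. Only 1 RNAi line was profiled, so suppression of AhNAS2 and anything else that sets the line apart from WT cannot be told apart. No label ties an array to an experiment, so p-values reflect only how far the pooled samples of a group lay apart, which may be partly technical.

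Nicotianamine is a small chelator that plants make from S-adenosylmethionine, and it binds zinc, iron, copper and other metals inside cells and during transport. A. halleri is a zinc hyperaccumulator, which moves much of its zinc from root to leaf, and nicotianamine in the root is known as one of the ligands that keep zinc mobile on this path. In RNA interference a double-stranded copy of a gene leads to breakdown of its messenger RNA, so that the gene is weakened and not deleted. The comparison asked which other root transcripts differed when AhNAS2 was suppressed and no zinc was added. The level of AhNAS2 itself could not be read by name. None of the nicotianamine synthases had a named probe set in the annotation used, so the labels of the RNAi arrays were not checked against their target.

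The annotation paired 13513 of the probe sets with 1 gene of the related species A. thaliana. A further 503 had several genes, and the remaining 8730 were unlisted, so members of these groups are given by their probe set identifier. Signals on the 6 arrays ran from 2.52 to 14.33 with array medians of 5.34 to 5.38. Arrays correlated at 0.987 to 0.992 within WT, 0.990 to 0.996 within RNAi and 0.982 to 0.993 between the lines. WT replicate 2 had the lowest correlations with the other WT arrays. It was the WT array farthest from the other 2 for 8986 probe sets, beside 6560 for replicate 1 and 7200 for replicate 3. RNAi replicate 3 had the lowest correlations within RNAi. It was the farthest RNAi array for 9737, beside 6578 for replicate 1 and 6431 for replicate 2. Replicates of a group held identical values for at most 0.044% of probe sets. Of the root tissue markers 0 of 19 had a named probe set. The root hair expansins EXPA7 and EXPA18, 2 of 7 root hair markers, had a mean signal of 7.52 to 7.98 on the WT arrays and 8.08, 8.09 and 6.997 on the RNAi arrays. The photosynthesis genes RCA and LHCB4.1, 2 of 28 markers of shoot tissue, had a mean signal of 4.97 to 5.22. The lines overlapped in both measures, and the low root hair signal of RNAi replicate 3 stood apart. The 3′ minus 5′ signal of control probes is a measure of RNA integrity and labelling. For GAPDH it ran from -0.28 to 0.030 on the WT arrays and from -0.098 to 0.15 on the RNAi arrays. For actin it was larger, at 2.55 to 2.71 in WT and 2.42 to 3.02 in RNAi. For ubiquitin it was 0.67 to 0.70 in WT and 0.63 to 0.74 in RNAi. The part of this measure in the results was not tested.

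Between the lines 5 probe sets passed the threshold, 2 higher (0.00879% of those tested) and 3 lower (0.0132%) in RNAi, or 0.022% together (limma, two-sided, Benjamini-Hochberg adjusted p under 0.05). They were AT4G18593 and AT5G49560, a probe set annotated to several genes and a pair of unlisted probe sets. In this bulk tissue, a lower share of cells of one type and less RNA per cell cannot be told apart.

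Of the 5, the gene AT4G18593 rose most. Its product is classed with the dual-specificity phosphatases, which remove phosphate from tyrosine as well as serine and threonine. Its signal was 5.58, 5.69 and 5.85 on the WT arrays and 8.43, 8.40 and 8.89 on the RNAi arrays. The groups lay far apart, and the spread within each was small beside the distance between them. The change was 7.28-fold, from 5.71 ± 0.13 to 8.57 ± 0.28 (SD, n = 3), with a limma SE of 0.168 on the log2 scale and an adjusted p of 2.51e-05. The gene moved from near the array medians to clearly above them. Between arrays of the same replicate number the difference was 2.84, 2.71 and 3.04. Its call held in all 22 alternative settings.

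Probe set 248844_s_at, annotated to several genes and therefore not named, fell 7.85-fold. It was at 8.77, 9.84 and 9.41 in WT and at 6.18, 6.46 and 6.46 in RNAi. The 3 RNAi arrays were close together and all WT arrays lay above them, with more spread among the WT arrays. On the log2 scale the difference was -2.97, with an SE of 0.321 and a limma adjusted p of 0.0107. The call held in 20 of 22 alternative settings and ended without RNAi replicate 1 (adjusted p = 0.0775) or RNAi replicate 2 (adjusted p = 0.0917).

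AT5G49560 fell by 0.77 on the log2 scale (SE 0.0965, limma adjusted p = 0.0244), a 1.71-fold change. Its arrays read 6.93, 7.10 and 7.07 in WT and 6.36, 6.32 and 6.11 in RNAi. The change was smaller than that of 248844_s_at, and so was the spread. The unlisted probe set 264657_at fell by 0.93 (SE 0.108, adjusted p = 0.0152), with 5.86, 5.80 and 5.82 in WT and 4.72, 4.89 and 5.09 in RNAi. The unlisted probe set 265253_at rose by 0.93 (SE 0.120, adjusted p = 0.0281), with 4.63, 4.95 and 4.74 in WT and 5.64, 5.91 and 5.55 in RNAi. Both unlisted probe sets ranked near the middle of all signals, and their groups did not overlap.

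These 3 calls were less stable than the other pair. AT5G49560, 264657_at and 265253_at passed in 13 of 22, 16 of 21 and 12 of 21 alternative settings that included them. With only the 6 control-medium arrays fitted, none of the 3 passed (limma adjusted p of 0.125, 0.0914 and 0.134). When replicate numbers entered the 12-array model as a block, the count went from 5 to 3, and AT5G49560, 264657_at and 265253_at each had an adjusted p of 0.0513. With the block within the 6 control-medium arrays 8 passed, among them 265253_at (adjusted p = 0.0481), while AT5G49560 (adjusted p = 0.0752) and 264657_at (adjusted p = 0.0537) did not. The count was 1 without RNAi replicate 1 or RNAi replicate 2, 3 without RNAi replicate 3, and 14, 20 and 15 without WT replicates 1, 2 and 3.

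**Figure D1:**
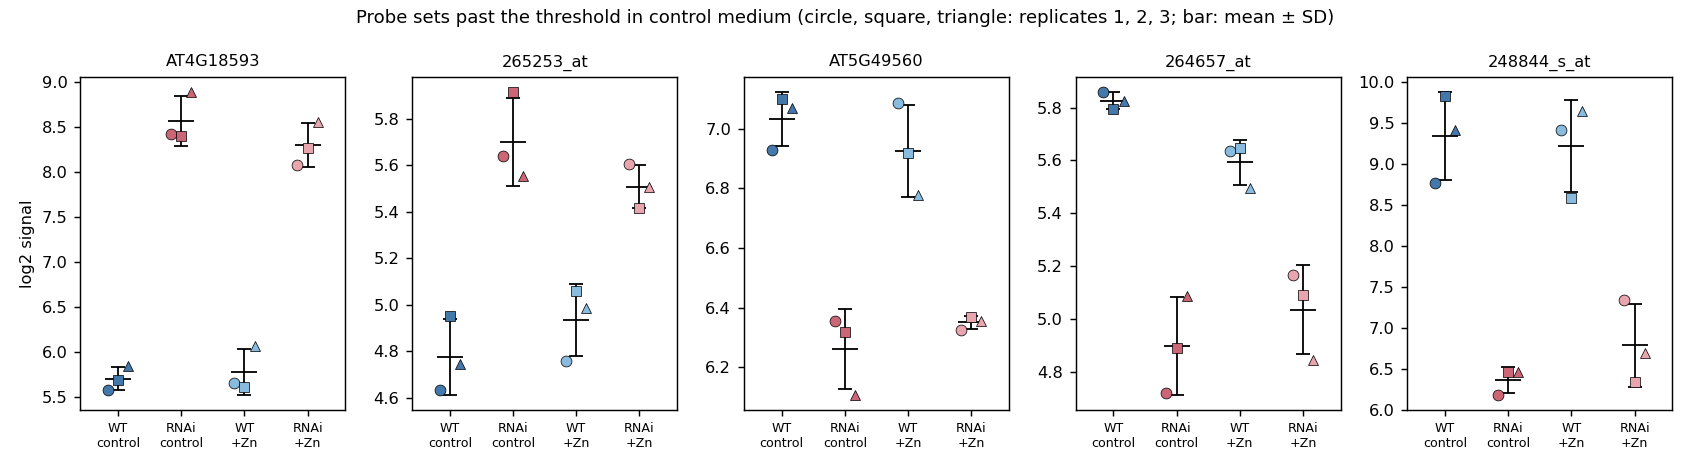
Log2 signal of the 5 probe sets that passed the threshold in control medium, on each of the 12 arrays. Symbols mark replicate numbers, horizontal bars the group mean and whiskers the SD (n = 3). In control medium the RNAi arrays of AT4G18593 sit between 8.40 and 8.89, and its WT arrays between 5.58 and 5.85. All 5 probe sets keep the same order of the lines on the added-zinc arrays.

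The same lines were also grown with added zinc, on 6 arrays that take no part in the control-medium difference. These arrays do enter the estimate of the spread behind its p-values, so the 5 were not chosen independently of them. With added zinc the 5 probe sets all differed in the same direction, with groups that did not overlap. Of all probe sets, 12.7% had groups that did not overlap in added zinc, 5.84% higher and 6.82% lower in RNAi. AT4G18593 (log2 fold change 2.52, SE 0.168, limma adjusted p = 0.000106) and 248844_s_at (-2.43, SE 0.321, adjusted p = 0.0207) passed in added zinc as well, where 0.0528% of probe sets passed. AT5G49560 was at -0.58 (adjusted p = 0.0728), 264657_at at -0.56 (adjusted p = 0.135) and 265253_at at 0.57 (adjusted p = 0.176). All 5 differences were smaller in size with added zinc than without. That gap was itself tested as an interaction of line and zinc, and none of the 5 passed (limma adjusted p of 0.9999 each). The largest gap beside its error was that of 264657_at, at -0.37 (SE 0.152, unadjusted p = 0.0325). Over all probe sets 0 passed for the interaction and 2.18% had an unadjusted p under 0.05.

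Most transcripts differed little between the lines. The median difference was 0.0014, and the middle 90% of probe sets lay between -0.28 and 0.27. A difference of at least 1 in size was found for 39 probe sets (0.171%), 21 of them lower and 18 higher in RNAi. Single genes accounted for 19 of the 39, and 18 were unlisted. Only 2 of the 39 passed the threshold. At a size of at least 0.5 there were 258 higher and 240 lower. An unadjusted p under 0.05 was reached by 8.76% of probe sets, 3.97% higher and 4.79% lower in RNAi. The share was larger at higher signals. Among the 7582 probe sets of lowest signal (means up to 4.36) it was 4.0%, among the next 7582 it was 10.2%, and among the 7582 of highest signal (means from 6.47) it was 12.1%. The median size of a difference in these groups was 0.063, 0.10 and 0.12. Of the 5 calls, 2 lay in the middle group and 3 in the highest.

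**Figure D2:**
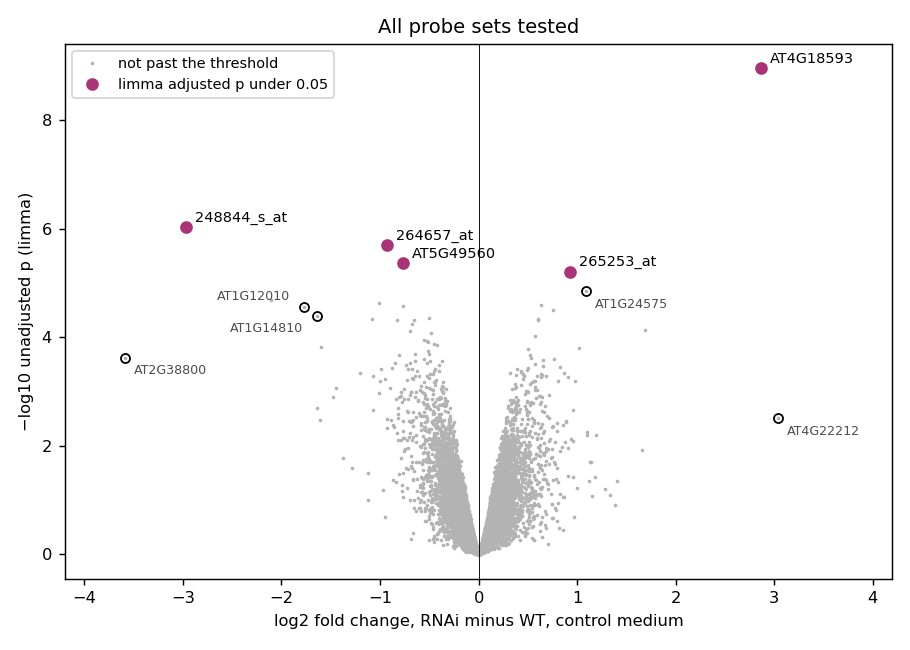
Log2 fold change (RNAi minus WT, control medium) of each probe set tested against −log10 of its unadjusted limma p. Filled points passed an adjusted p of 0.05, and open circles mark 5 genes named in the text that did not. AT2G38800 at -3.59 and AT4G22212 at 3.04 have the largest differences but lower on the p axis than the 5 calls.

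Below these calls, 850 single-gene probe sets did not pass although their unadjusted p was under 0.05 and their groups did not overlap, 369 higher and 481 lower in RNAi. For scale, 13.9% of all probe sets had groups that did not overlap, 6.82% higher and 7.09% lower. The 12 lowest and 12 highest of the 850 are described next as values that did not pass.

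The lowest was AT2G38800. Its annotation relates it to proteins that bind calmodulin, a calcium sensor. It was at 8.64, 5.41 and 7.91 in WT and at 3.36, 3.12 and 4.71 in RNAi, a difference of -3.59 (SE 0.691, adjusted p = 0.136). WT replicate 2 lay far below the other WT arrays and closer to the RNAi arrays. Without it the difference was -4.55 and passed (adjusted p = 0.0102), and without WT replicate 1 it was -2.93. The RNAi signals lay below the array medians, where signal over background was not analysed.

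A pair of these genes belongs to the lists for ethylene and methionine metabolism. AT1G12010 encodes an ACC oxidase, which makes ethylene from a product of S-adenosylmethionine, the precursor that nicotianamine synthesis also uses. It was at 9.88, 9.96 and 8.85 in WT and at 7.89, 8.01 and 7.47 in RNAi (-1.77, SE 0.269, limma adjusted p = 0.0581). AT1G14810, aspartate-semialdehyde dehydrogenase of the pathway to methionine, lysine and threonine, was at 6.28, 6.94 and 6.60 in WT and at 5.33, 4.64 and 4.91 in RNAi (-1.64, SE 0.259, adjusted p = 0.0584). For both genes every RNAi array was below every WT array. AT1G12010 passed with the replicate number as a block, at an adjusted p of 0.0388 in the 12-array model and 0.0149 within control medium, and without WT replicate 3 (-2.13, adjusted p = 0.00269). In all it passed in 6 and AT1G14810 in 3 of 22 alternative settings. With added zinc AT1G12010 differed by -2.32 and passed (adjusted p = 0.00752). AT1G14810 was at -0.80 there (adjusted p = 0.442), and its gap between the media did not pass (-0.85, SE 0.366, unadjusted p = 0.0396).

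Other low values came from genes of varied kinds. The lipid-transfer family gene AT1G48750 was at 8.86, 8.16 and 8.87 in WT and 7.31, 7.15 and 6.996 in RNAi (-1.48, SE 0.352, limma adjusted p = 0.190). The RNAi arrays agreed closely, and with added zinc the gene passed at -2.54 (adjusted p = 0.0261). AT2G21510, a DnaJ-type co-chaperone, was at 7.25, 6.43 and 7.37 in WT and 5.25, 5.38 and 5.61 in RNAi (-1.60, SE 0.293, adjusted p = 0.113). AT1G18360, an alpha/beta-hydrolase family protein, was at 7.38, 7.68 and 7.27 in WT and 6.29, 6.48 and 6.51 in RNAi (-1.02, SE 0.151, adjusted p = 0.0581). The last had the smallest SE of the 12. AT5G01740 of the NTF2-like family (-1.61), AT1G56610 (-1.64), AT2G26240 (-1.45), AT4G01240 (-1.01), AT5G12350 (-1.001) and AT1G27030 (-0.99) had adjusted p-values between 0.144 and 0.262. In AT5G01740 the spread lay in RNAi, where replicate 3 was at 6.88 and the others at 8.50 and 8.17. In AT1G56610 and AT2G26240 it lay in WT, where replicate 2 was lowest in both (5.27 and 7.74). Without WT replicate 2, AT2G26240 (-1.96, adjusted p = 0.00118), AT2G21510 (-1.90, adjusted p = 0.0411) and AT5G12350 (-1.25, adjusted p = 0.0411) passed, and without WT replicate 3, AT1G27030 did (-1.26, adjusted p = 0.0223).

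The highest value was that of AT4G22212, of the defensin-like family of small secreted cysteine-rich peptides. It was at 9.09, 5.49 and 4.87 in WT and at 9.58, 9.76 and 9.22 in RNAi (3.04, SE 0.821, limma adjusted p = 0.257). WT replicate 1 was close to the RNAi arrays, and the other WT arrays were lower by more than 3 on the log2 scale. Without WT replicate 1 the difference was 4.34 and passed (adjusted p = 0.00159). Without WT replicate 3 it was 2.23.

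AT1G24575, a gene without an assigned function here, came closest to passing. It was at 5.85, 5.22 and 5.83 in WT and at 6.84, 6.73 and 6.59 in RNAi (1.09, SE 0.154, limma adjusted p = 0.0540), and passed in 9 of 22 alternative settings, among them those without WT replicate 1, 2 or 3. AT1G71695, a class III peroxidase of the secreted family that acts on wall phenolics and hydrogen peroxide, was at 4.46, 5.38 and 5.01 in WT and at 6.14, 5.86 and 5.89 in RNAi (1.02, SE 0.186, adjusted p = 0.113). The peroxidase passed without WT replicate 2 (1.23, adjusted p = 0.0249) and with added zinc, where the difference was 1.61 (adjusted p = 0.00752). SP1L2, a SPIRAL1-like protein related to cortical microtubule regulators, was at 4.47, 4.87 and 3.90 in WT and at 5.31, 5.43 and 5.42 in RNAi (0.98, SE 0.212, adjusted p = 0.151).

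The asparaginase ASPGA1, which releases ammonium from asparagine, was at 6.28, 8.01 and 7.99 in WT and at 8.69, 8.75 and 8.26 in RNAi (1.14, SE 0.423, adjusted p = 0.457). Its WT replicate 1 stood apart from the others, and without it the difference was 0.57. AT1G13930 was the most abundant of the 24, at 11.10, 11.05 and 9.95 in WT and 11.67, 11.62 and 11.68 in RNAi (0.95, adjusted p = 0.219), and here WT replicate 3 was the low array, without which the difference was 0.58. AT5G62360, of the invertase and pectin methylesterase inhibitor family, was at 0.95, AT1G30130 at 0.91, and AT1G24735, a methyltransferase of the caffeoyl-CoA type, at 0.89. The F-box-like AT1G32375 was at 0.88, the WD40 repeat protein AT5G43930 at 0.87 and the leucine-rich repeat protein AT1G13910 at 0.86. These 6 had adjusted p-values from 0.144 to 0.535. Without WT replicate 2 AT1G24735 and AT1G13910 were both at 0.56.

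All 24 of these genes differed in the same direction on the added-zinc arrays. Those arrays also entered the spread behind the p-values by which the genes were chosen. In 22 of the 24 the groups there also did not overlap, in the same direction, SP1L2 and AT1G24735 being the exceptions. Of all probe sets, 5.84% were higher and 6.82% lower in RNAi without overlap in added zinc. AT1G12010, AT1G48750 and AT1G71695 passed the threshold there, as did 0.0528% of all probe sets. In 13 of the 24 the difference was smaller with zinc. None passed for the interaction of line and zinc.

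**Figure D3:**
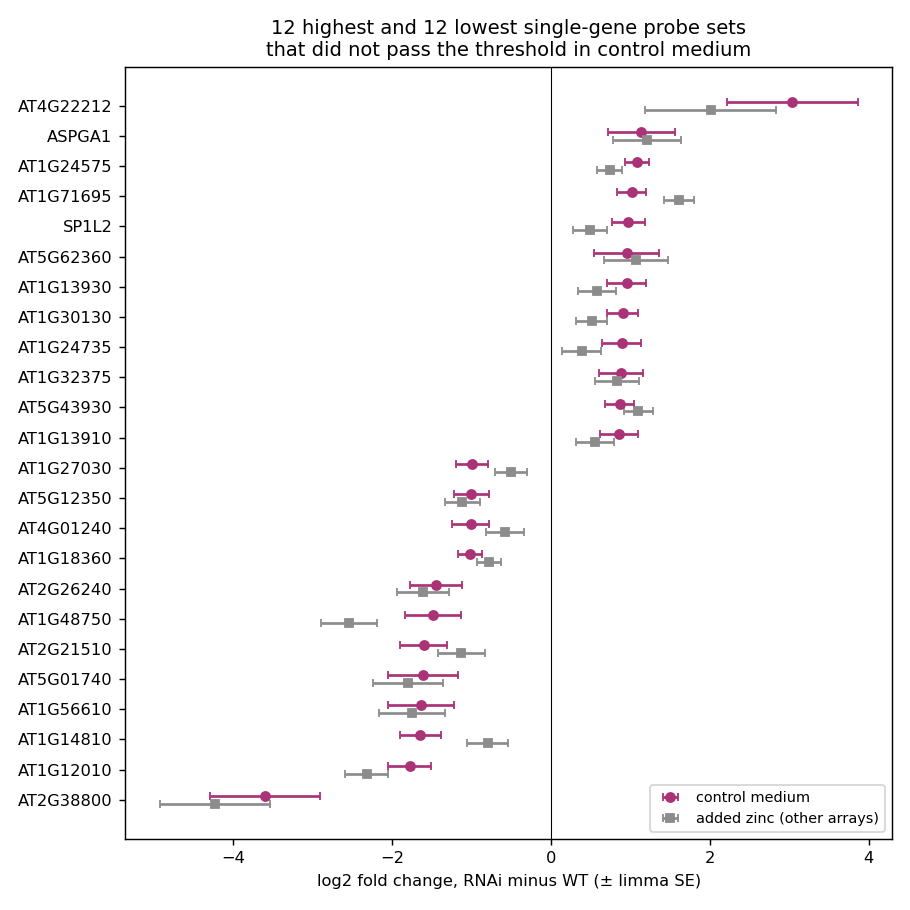
Log2 fold change (RNAi minus WT, with limma SE) of the 12 lowest and 12 highest single-gene probe sets that did not pass the threshold in control medium. Round points give control medium and grey squares the separate added-zinc arrays. Each of the 24 lies on the same side of 0 in both media, from AT2G38800 (-3.59 and -4.23) to AT4G22212 (3.04 and 2.01).

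The adjusted p-values left a step just past the threshold, from 0.0281 at the fifth probe set to 0.0540 at the sixth. Between 0.05 and 0.06 lay 14 probe sets, 9 lower and 5 higher in RNAi. Single genes accounted for 8 of them. Those not described above were chosen after their values were seen. The unlisted probe set 248048_at had the largest difference among them. It was at 10.90, 10.77 and 10.60 in WT and at 9.14, 8.72 and 8.09 in RNAi (-2.10, SE 0.309, limma adjusted p = 0.0581). Its mean signal was above that of 94.75% of probe sets, and its groups did not overlap. It passed with the block within control medium (adjusted p = 0.00918). With added zinc it passed at -2.93 (adjusted p = 0.00567). The unlisted probe set 248793_at was at 5.77, 5.66 and 5.42 in WT and 4.36, 4.67 and 4.58 in RNAi (-1.08, SE 0.173, adjusted p = 0.0584), and at -2.02 with added zinc (adjusted p = 0.000878).

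Smaller differences filled the rest of that band, and 3 genes with even arrays are given here. CCOAMT, a methyltransferase of the type that acts on caffeoyl-CoA in lignin synthesis, was at 4.68, 4.56 and 4.81 in WT and 5.33, 5.35 and 5.64 in RNAi (0.75, SE 0.116, limma adjusted p = 0.0584). AT5G02240, a protein with a Rossmann fold, was at 6.90, 6.89 and 6.66 in WT and 7.33, 7.35 and 7.59 in RNAi (0.60, SE 0.0969, adjusted p = 0.0584). AT1G04040, of the HAD-type acid phosphatase family, was at 9.46, 9.42 and 9.58 in WT and 9.03, 8.99 and 8.95 in RNAi (-0.50, SE 0.0793, adjusted p = 0.0584). In each of these 3 the arrays of a line lay close together and the groups did not overlap. With added zinc AT1G04040 differed by -0.01 (SE 0.0793, adjusted p = 0.996). Its gap between the media was -0.49 (SE 0.112), with an unadjusted p of 0.000922 that did not pass over all probe sets (adjusted p = 0.9999).

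Some large mean differences came from groups that overlapped. HIS1-3, a linker histone variant known as drought-inducible, was at 8.28, 5.31 and 7.26 in WT and 8.61, 8.19 and 8.19 in RNAi (1.38, SE 0.827, limma adjusted p = 0.694). Without WT replicate 2 its difference was 0.56. AT4G20450, a leucine-rich repeat kinase gene, was at 3.81, 6.15 and 5.45 in WT and 3.88, 4.01 and 3.67 in RNAi (-1.28, SE 0.503). Its difference was -1.94 without WT replicate 1 and -0.78 without WT replicate 2. The RNAi arrays of both genes were even, and the WT arrays were not.

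AT1G14960, of the major latex protein family, showed the reverse, with 7.25, 8.06 and 7.31 in WT and 9.14, 8.94 and 7.11 in RNAi (0.86, SE 0.461). AT5G04120, of the phosphoglycerate mutase family, was at 6.44, 5.61 and 6.92 in WT and 4.54, 4.55 and 5.77 in RNAi (-1.37, SE 0.492). In AT1G14960 RNAi replicate 3 was below every WT array and the other RNAi arrays were above them, and in AT5G04120 it lay among the WT arrays. AT1G14960 was at 1.501 without RNAi replicate 3 and at 0.49 without RNAi replicate 1. The jacalin-related lectin JAL22 (-0.87), the cytochrome P450 CYP71B6 (-0.83), the pectin lyase-like AT1G60590 (0.91) and the papain-type protease AT4G16190 (0.86) complete the 8 genes with the largest overlapping differences. The adjusted p-values of all 8 ran from 0.324 to 0.694. Single arrays moved several of them. AT4G16190 was at 1.43 without WT replicate 1 and 0.36 without WT replicate 3, JAL22 at -0.52 without WT replicate 1, and AT1G60590 at 0.58 without RNAi replicate 3. CYP71B6 was at -1.20 and passed without WT replicate 2 (adjusted p = 0.0182).

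**Figure D4:**
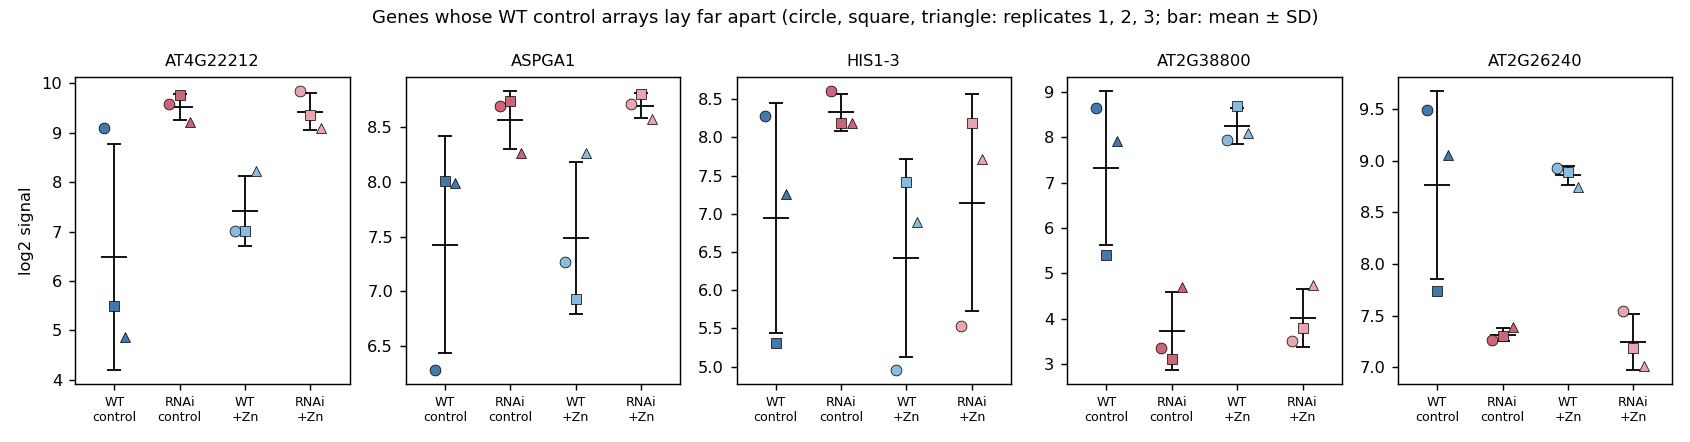
Log2 signal of 5 genes whose WT control arrays lay far apart, on each of the 12 arrays, with group mean and SD (n = 3). In control medium the WT SD is 2.28 for AT4G22212 and 0.27 in RNAi. WT replicate 2 (square) is lowest in HIS1-3, AT2G38800 and AT2G26240, and WT replicate 1 (circle) is highest in AT4G22212 and lowest in ASPGA1.

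Gene lists were drawn up for metal handling, the pathways around nicotianamine and root biology. They named 268 loci, of which 38 had a named probe set, and 7 of the 20 lists had none, among them the nicotianamine synthases, the nicotianamine and metal chelate transporters and iron storage. No member of any list or family passed the threshold in either direction.

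Of the genes for zinc transport and the zinc deficiency response, 5 of 28 were measured and 0 reached an unadjusted p under 0.05, with a median difference of 0.023. The zinc importer ZIP9, known to be induced by zinc deficiency, was at 10.89, 11.08 and 10.32 in WT and 11.07, 11.12 and 9.69 in RNAi (-0.14, SE 0.378, limma adjusted p = 0.954). Its low array in each line was replicate 3, and RNAi replicate 3 was also the array with low root hair expansins. ZIP6 (0.05), the zinc sensor bZIP19 (0.02), the manganese carrier MTP11 (0.18) and the metal carrier AT3G58060 (-0.47, SE 0.255, adjusted p = 0.655) also had overlapping groups. The other 23 were not analysed here.

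Of the iron uptake list, 4 of 14 genes were measured, with a median of -0.15 and 3 of the 4 below 0. They were AT1G28680, AT3G13610, AT3G12900 and BGLU42 (-0.19, limma adjusted p = 0.706). The rest of the list had no named probe set, so the median does not describe iron uptake as a whole. Over all 22746 probe sets 11266 were below 0 and 11480 above. Of the 4, 1 had an unadjusted p under 0.05, as did 8.76% of all probe sets. AT1G28680, known as a coumarin synthase, had a mean of 9.07 ± 0.16 (SD, n = 3) in the WT roots and 8.82 ± 0.079 in the RNAi roots. The difference of -0.25 had an SE of 0.108 and a limma adjusted p of 0.538, and the groups overlapped. The hydroxylase genes of coumarin synthesis, AT3G13610 (0.06) and AT3G12900 (-0.10), lay near 0. With added zinc AT3G13610 was at -0.68 (limma adjusted p = 0.361) with overlapping groups. Its gap between the media did not pass (0.74, SE 0.269, limma unadjusted p = 0.0177). Iron deficiency regulators were measured for 9 of 15 genes on 10 probe sets, 7 of them above 0. Their median was 0.14 beside 0.0014 over all probe sets, and with added zinc it was -0.054. ILR3, a bHLH factor upstream of the response, had means of 10.34 ± 0.042 in the WT roots and 10.52 ± 0.081 in the RNAi roots. The difference of 0.17 had an SE of 0.0787 and an adjusted p of 0.565, and bHLH34 (0.21) and bHLH115 (0.24), of the same subgroup, had adjusted p-values of 0.613 and 0.698. BHLH101, an inducible member further down, was at -0.15 (adjusted p = 0.921).

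Among copper genes, CCS, which loads copper into superoxide dismutase, was at 6.34, 5.89 and 6.44 in WT and 7.15, 6.98 and 6.64 in RNAi (0.70, SE 0.186, limma adjusted p = 0.249). Its groups did not overlap in control medium and overlapped with added zinc, where the difference was 0.28. The metallothionein MT1C was at 0.14 (adjusted p = 0.868). In methionine metabolism ARD4, a dioxygenase of the cycle that salvages methionine after ethylene or nicotianamine synthesis, was at 7.33, 5.98 and 6.17 in WT and 7.09, 7.13 and 7.03 in RNAi (0.59, adjusted p = 0.576). Without WT replicate 1 ARD4 was at 1.01 and passed (adjusted p = 0.0403), and without WT replicate 2 it was at 0.34. MGL, which cleaves methionine, was at 0.15. The ethylene signalling factor EIN3 was at 0.14 (adjusted p = 0.795) beside the -1.77 of the ACC oxidase.

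Of the RNA silencing genes AGO7 (-0.19) and SE (-0.02) were measured. In lignin synthesis HCT was at -0.02 and CCR2 at 0.28. The sulfite reductase SIR was at -0.07, the defence marker PDF1.2 at -0.04, the root hair expansins EXPA7 and EXPA18 at -0.07 and -0.01, and the shoot markers RCA and LHCB4.1 at -0.12 and 0.03. The reference genes AT4G34270 and AT2G28390 were at 0.10 and 0.01. These 12 genes each had overlapping groups and an adjusted p of at least 0.786.

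Gene families recognised by their symbols gave more members. Xyloglucan endotransglucosylases, which cut and rejoin hemicellulose chains in growing walls, had 7 of 9 members below 0 and a median of -0.25. XTH33 had means of 6.35 ± 0.22 in the WT roots and 5.79 ± 0.23 in the RNAi roots (-0.57, SE 0.182, limma adjusted p = 0.366), XTH19 at -0.31 (adjusted p = 0.358) and XTH18 at -0.35 (adjusted p = 0.487). These 3 had groups that did not overlap, lower in RNAi, as had 7.09% of all probe sets. The share with an unadjusted p under 0.05 was 33.3%, beside 8.76% of all probe sets. Over all 22746 probe sets 11266 were below 0. The families were chosen with earlier results of these data known, and enrichment was not tested.

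Genes matched by the symbols of defensins and related small peptides had 11 of 15 members below 0 with a median of -0.12. Of these, 5 were below 0 with an unadjusted p under 0.05. Over all probe sets 4.79% were lower at that p, and with added zinc the family's median was -0.0072. LCR68 was at 8.56, 8.40 and 8.31 in WT and 7.90, 8.02 and 8.04 in RNAi (-0.44, SE 0.0902, limma adjusted p = 0.144). PDF1.4 (-0.45) followed. The symbol match also took in PDF1A (-0.36), a symbol of a peptide deformylase and not of a defensin. The counts and medians of the family include it. The defensin-like AT4G22212, which has no such symbol, was not counted in this family and had the opposite sign.

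Other families had medians between -0.074 and 0.11. UDP-glycosyltransferases had a median of 0.010 over 47 members, with UGT74F1, which acts on salicylic acid, at 6.65, 5.37 and 6.16 in WT and 5.21, 5.08 and 5.11 in RNAi (-0.93, SE 0.252, limma adjusted p = 0.260) and UGT88A1 at 0.52. UGT74F1 passed without WT replicate 2 (-1.27, adjusted p = 0.0347). UGT88A1 was at 0.73 without WT replicate 1, where it passed (adjusted p = 0.0498), and at 0.34 without WT replicate 2. Genes matched by cytochrome P450 symbols had a median of -0.018 over 26 members, and CYP78A9 was at -0.35. The 26 include CYP71 (-0.23), a symbol of a cyclophilin and not of a P450. Glutathione S-transferases were at 0.11 (13 members, led by GSTU22 at 0.32), expansins at -0.074 (18 members, with EXPA9 at -0.46 and EXLB1 at 0.44) and WRKY factors at 0.083 (6 members, with WRKY20 at 0.21). The TBL wall acetyltransferases had a median of -2.3e-05 over 22 members, and TBL38 was at 7.75, 8.16 and 7.95 in WT and 7.40, 7.46 and 7.37 in RNAi (-0.54, SE 0.127, adjusted p = 0.182). Serine carboxypeptidase-like genes had a median of -0.022 over 29 members, with scpl46 at -0.35.

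The organelle genomes were read on 54 chloroplast and 22 mitochondrial probe sets. Over all 22746 probe sets 11266 were below 0 and 11480 above. Chloroplast-encoded genes were below 0 on 40 of 54 probe sets, with a median of -0.15. An unadjusted p under 0.05 was reached by 11.1% of them, beside 8.76% of all probe sets. The plastid RNA polymerase gene rpoB was at 4.12, 3.99 and 3.85 in WT and 3.69, 3.45 and 3.30 in RNAi (-0.50, SE 0.149, limma adjusted p = 0.312), rpoA at -0.49 and the cytochrome assembly gene ccsA at -0.57. The groups of rpoA and ccsA overlapped, and the signal of rpoB was low, at a mean percentile of 18.51. The median chloroplast signal per array was 5.17, 4.79 and 4.92 on the WT arrays and 5.13, 4.75 and 4.83 on the RNAi arrays. The lines overlapped, replicate 1 being highest and replicate 2 lowest in both, and within each same-numbered pair the RNAi array was the lower.

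Mitochondrion-encoded genes were above 0 on 17 of 22 probe sets, with a median of 0.12 and 27.3% at an unadjusted p under 0.05, beside 8.76% of all probe sets. The 22 probe sets stand for 15 genes, so several can report the same gene. The cytochrome c maturation gene ccb452 was at 7.17, 6.51 and 7.17 in WT and 7.67, 7.45 and 7.91 in RNAi (0.73, SE 0.225, limma adjusted p = 0.345), and the NADH dehydrogenase gene nad4L was at 0.51 (adjusted p = 0.440). The related ccb382 had the opposite sign, at 9.16, 9.33 and 9.41 in WT and 8.84, 7.95 and 8.45 in RNAi (-0.89, SE 0.243, adjusted p = 0.262). The median mitochondrial signal per array was 4.47, 4.41 and 4.70 on the WT arrays and 4.82, 4.65 and 4.87 on the RNAi arrays, where WT replicate 3 lay within the RNAi range and the RNAi array was the higher of each same-numbered pair. With added zinc the medians of the differences were -0.082 for chloroplast and 0.016 for mitochondrial probe sets.

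**Figure D5:**
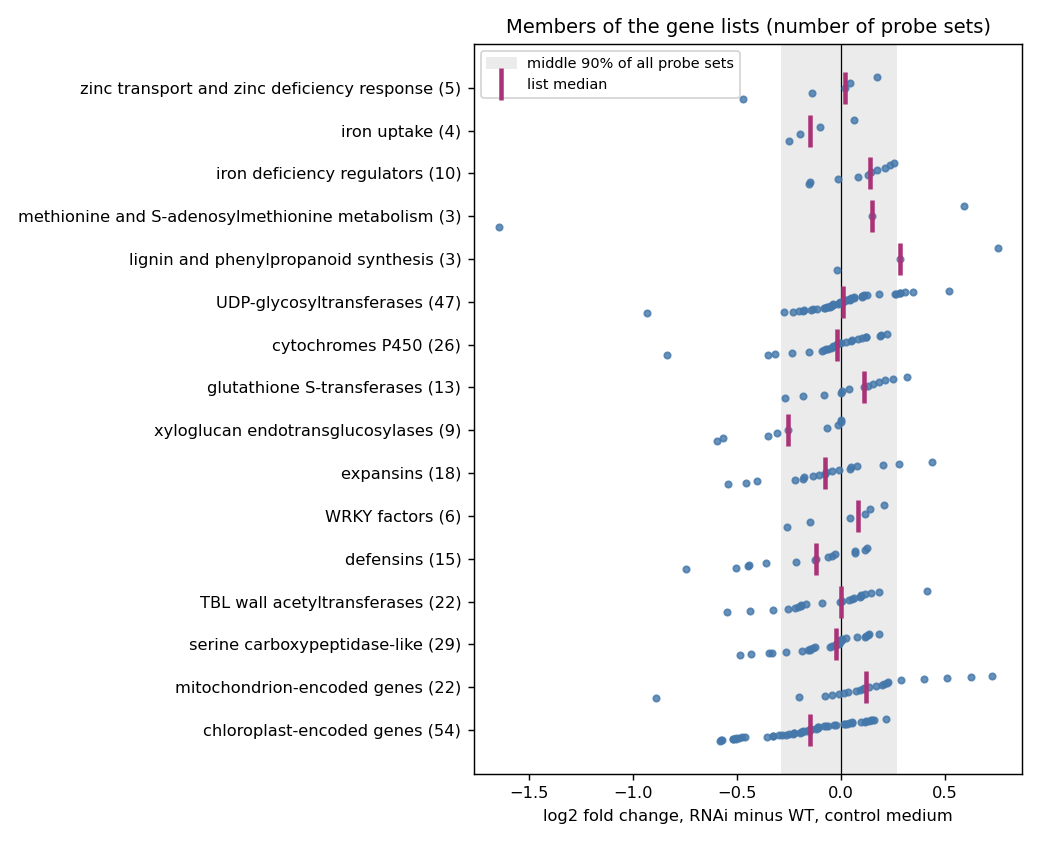
Log2 fold change (RNAi minus WT, control medium) of each member of the gene lists and families with at least 3 probe sets. Vertical marks give list medians, and the grey band holds the middle 90% of all probe sets (-0.28 to 0.27). No member passed the threshold. The list medians run from -0.25 for xyloglucan endotransglucosylases to 0.28 for lignin and phenylpropanoid synthesis.

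Probe sets whose lines did not overlap were also compared between the media, on separate arrays and across all genes. Of the 1552 that were higher in RNAi on every control array, 270 (17.4%) were higher on every added-zinc array, where 5.84% of all probe sets were, and 39 (2.51%) were lower. Of the 1612 lower in control medium, 383 (23.8%) were lower with added zinc, where 6.82% of all probe sets were, and 13 (0.806%) were higher. The shared probe sets made up 20.3% and 24.7% of the added-zinc lists. Most of the probe sets that separated the lines in control medium did not do so in the same direction with added zinc. With 3 arrays a group, groups can fail to overlap without a line difference. Loss of the separation is therefore not a measure of an effect of zinc, and 0 probe sets passed for the interaction of line and zinc. Of the 39 probe sets with a difference of at least 1 in size, 36 had the same sign with added zinc and 7 passed the threshold there.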

How the data were processed

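Biotin-labelled root RNA was measured on 12 single-colour arrays. The authors deposited log2 values per probe set, made with RMA and affy per the submitters' processing notes, with versions not given in the sources used here. Probes match A. thaliana, so signals also depend on how well A. halleri transcripts match them. Unfiltered values were fitted with limma 3.58.1 (R 4.3.3) as group means over all 12 arrays (8 residual and 3.79 prior degrees of freedom), with two-sided p-values adjusted by Benjamini-Hochberg over 22746 probe sets. The procedure was tested on simulated data. The median SE was 0.109, a precision set by the number of arrays.

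Same-numbered WT and RNAi arrays deviated together (r of 0.162, 0.289 and 0.484), so the number was also fitted as a block. Arrays of unlike number had r from -0.35 to 0.181. The highest of these, WT replicate 2 with RNAi replicate 1, was above the 0.162 of the replicate 1 pair, so replicates 1 and 2 were not clearly paired. This pairing comes from the data and not from the labels.

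Named were all calls, the 12 highest and 12 lowest single-gene probe sets at an unadjusted p under 0.05 without overlap, the 4 highest and 4 lowest with overlap, and up to 3 members per list by p. Members and lists were chosen with earlier results of these data known. Alternatives covered arrays fitted or left out, the block, scaling, low-signal filters and the variance model.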

Additional observations from a re-analysis of the deposited data

How the results depend on the processing

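The count of probe sets past the threshold was 5. It was 3 with only the 6 control-medium arrays, 3 with the replicate block over all 12 arrays, 8 with the replicate block within the control-medium arrays, 3 among probe sets above the median level, 9 among those with a mean of at least 4, 11 with an intensity trend and 31 with array weights. It stayed at 5 or 6 with median centring, quantile normalization and robust variance estimates. With single arrays left out it ran from 1 to 20; leaving out added-zinc arrays, chosen after the data were seen, gave 3 to 17. The interaction passed for 0 of the 5 in the settings it was fitted in, and 1 to 3 of the 5 passed in added zinc with single arrays left out. The block also ended the calls of AT5G49560 and 264657_at in both forms and of 265253_at over 12 arrays, and it added AT1G12010 in both forms and 248048_at within control medium. Of 106 named values, the 5 calls kept their sign in all settings, and 27 of the other 101 passed in at least 1 setting. Of the values that did not pass, 12 changed sign in some setting, CCR2 (0.28) and WRKY22 (-0.26) being the farthest from 0. Left-out arrays moved AT2G28390 between -0.053 and 0.082, AT3G13610 between -0.056 and 0.16, CCR2 between -0.037 and 0.45, EXPA18 between -0.20 and 0.36, EXPA7 between -0.26 and 0.29, HCT between -0.13 and 0.12, LHCB4.1 between -0.074 and 0.11, RCA between -0.24 and 0.0033, SE between -0.15 and 0.080, SIR between -0.21 and 0.0044, WRKY22 between -0.57 and 0.047 and ZIP9 between -0.38 and 0.33. Array weights gave 0.040 for HCT, -5.47e-05 for AT2G28390, 0.096 for EXPA7, 0.17 for EXPA18, -0.021 for LHCB4.1 and 0.086 for ZIP9, and median centring gave 0.00175 for EXPA18. The cause of these changes was not tested. Signal over background was not analysed, which limits low signals.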
